A study of Mus musculus with 15 samples.

Results

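The Dlx homeobox family was followed in RNA-seq data of mouse dental mesenchymal cells (mDMCs), through the rows of the expression table whose Ensembl transcript belongs to Dlx1, Dlx2, Dlx3, Dlx5 or Dlx6. Each gene had 1 row, which gave 5 members among 12089 transcripts, and the antisense transcripts Dlx1as and Dlx6os1 were described beside them. Dlx4, the neighbour of Dlx3, had no row matched to it and was not analysed here. The rule for the members uses gene names and no measured value. mDMCs were single cells released with trypsin from the mesenchyme of mandibular first molar germs of ICR mouse embryos at E14.5, after dispase had been used to take off the epithelium. Freshly isolated cells (0 h, 3 libraries) were compared with cells grown in DMEM with fetal bovine serum for 12 h (2 libraries), 24 h, 36 h and 48 h (3 libraries each). A single library of undissociated dental mesenchymal tissue had no replicate and entered no test. No group carried a genetic change or a drug. Nothing in the labels says that libraries of a time point came from separate animals or cultures, so p-values measure only the spread between these libraries, which may be technical.

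Dlx proteins are transcription factors related to Distal-less of the fly. They bind DNA through a homeodomain, and most of their genes lie as convergent pairs that share enhancers in the stretch between them. In the pharyngeal arches, Dlx1 and Dlx2 are expressed in both the upper and the lower jaw, while Dlx5, Dlx6 and Dlx3 are expressed in progressively more distal parts, an arrangement that gives the lower jaw its identity. In the tooth, Dlx1 and Dlx2 are needed together for upper molars, and Dlx3 is also known from the enamel organ, hair and placenta.

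The homeobox, the 180 bases that code for the homeodomain, is shown for the members because it is what joins them into a family. The sequences were read from the Ensembl transcripts of GENCODE M21 on GRCm38 (mm10) and run 5′ to 3′. Capitals mark the 12 bases that code for tryptophan, phenylalanine, glutamine and asparagine at the start of the stretch that homeodomains share in the recognition helix, from residue 48 of 60.
Dlx1: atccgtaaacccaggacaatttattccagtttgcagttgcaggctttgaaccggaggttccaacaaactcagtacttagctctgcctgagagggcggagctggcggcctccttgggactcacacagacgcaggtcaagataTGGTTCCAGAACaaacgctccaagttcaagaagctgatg
Dlx2: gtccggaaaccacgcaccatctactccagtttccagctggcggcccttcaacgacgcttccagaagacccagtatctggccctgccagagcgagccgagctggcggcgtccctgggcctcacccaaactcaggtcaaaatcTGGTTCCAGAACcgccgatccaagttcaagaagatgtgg
Dlx3: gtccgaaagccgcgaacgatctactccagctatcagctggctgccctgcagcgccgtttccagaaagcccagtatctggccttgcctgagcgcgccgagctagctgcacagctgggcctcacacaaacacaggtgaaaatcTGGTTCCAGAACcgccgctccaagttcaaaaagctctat
Dlx5: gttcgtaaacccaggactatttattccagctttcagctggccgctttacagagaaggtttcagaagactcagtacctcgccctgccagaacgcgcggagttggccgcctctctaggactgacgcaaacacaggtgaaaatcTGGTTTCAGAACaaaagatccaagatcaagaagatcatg
Dlx6: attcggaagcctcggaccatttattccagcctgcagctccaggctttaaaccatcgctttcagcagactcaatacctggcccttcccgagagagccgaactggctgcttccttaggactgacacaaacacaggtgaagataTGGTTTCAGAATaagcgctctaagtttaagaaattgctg
Between members, 66.1% (Dlx3 and Dlx6) to 81.7% (Dlx2 and Dlx3) of the bases were identical. In the coded protein, Dlx1 and Dlx6 were the most alike, with 58 of 60 identical residues, followed by Dlx2 and Dlx5 with 56 and by Dlx2 and Dlx3 with 55. The chromosomal partners were less alike in the homeodomain than these, with 52 identical residues for Dlx1 and Dlx2 and 51 for Dlx5 and Dlx6. Over the whole transcripts compared, the longest stretch shared by 2 members was between 12 and 23 bases.

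Dlx1 (chr2:71528113-71533980, plus strand) and Dlx2 (chr2:71543408-71546754, minus strand) face each other across 9427 bases, and Dlx6 (chr6:6863334-6868568, plus strand) and Dlx5 (chr6:6877805-6882068, minus strand) across 9236 bases. Dlx3 lies at chr11:95120119-95125296 on the plus strand. The transcript listed for Dlx5, ENSMUST00000142635, is not the one that codes for the whole protein. Compared with ENSMUST00000052609, it lacks the first 82 bases of exon 2 (chr6:6879629-6879710, minus strand), of which the last 29 belong to the homeobox. These bases are shown because they set the listed transcript apart from the whole one.
Dlx5 bases absent from the listed transcript: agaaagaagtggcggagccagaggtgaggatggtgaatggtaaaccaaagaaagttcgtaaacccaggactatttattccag
Their loss shifts the reading frame, and the listed transcript codes for 146 residues without the homeodomain, against 289 for the whole transcript. For comparison, 69.2% of the 8445 listed transcripts of genes with several coding transcripts had the longest coding sequence of their gene. Whether a row holds the whole gene or that transcript alone is not given in the sources used here, so the Dlx5 values are those of its row. The other member rows name transcripts that code for the homeodomain.

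The values are whole-number scores. All libraries share one distribution of scores, with a median of 721 and a highest value of 127101, and library totals lie between 21357605 and 21365980. Depth is unknown and no counting interval can be given. Against these scales Dlx1 was a high transcript, whose mean at 0 h exceeded 92.1% of the transcripts, whereas Dlx6 exceeded 45.2%, Dlx2 39.0%, Dlx3 9.66% and Dlx5 5.93%. Per kilobase of the listed transcript, the mean score at 0 h was 997 for Dlx1, 274 for Dlx6, 196 for Dlx2, 43.8 for Dlx5 and 35.8 for Dlx3. The order of Dlx3 and Dlx5 therefore depended on whether the score was divided by length, and the sources used here do not say whether the scores already account for it.

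All 10 dental mesenchyme markers (Msx1, Pax9, Lhx6, Lhx8, Barx1, Prrx1, Prrx2, Twist1, Pdgfra and Vim) were in the table, with a summed score between 107698 and 201692 over the 15 libraries. Vim and Prrx1 make up most of this sum. Taken singly, 7 of the 10 were lower, 1 was higher and 2 were not called at 48 h against 0 h, with a median log2 change of -0.68 (limma, Benjamini-Hochberg over all transcripts). The 8 of 10 called were near the 71.2% of all transcripts called, of which 37.1% were higher and 34.0% lower. The 1 higher marker was Vim (1.18 ± 0.24). Vim was at 70528 in each library at 48 h, and every cultured library held either 70528 or 127101. The latter is the highest value of the shared distribution, so the size and SE of this change are bound to fixed values. Among those lower, the transcription factors Pax9 and Lhx6 and the receptor Pdgfra changed by -2.37 ± 0.22, -1.60 ± 0.11 and -2.69 ± 0.079 (log2, ± SE), and the part of these changes in the Dlx values was not tested. Markers of other cells differed between the groups too. The 6 endothelial markers summed to 7975 to 9452 at 0 h and to 396 to 851 in culture, and the 6 red cell genes to 97654 to 150514 at 0 h and to 51 to 757 in culture. The 4 muscle markers in the table, of 5 listed, summed to 120 to 656 at 0 h, to 383 to 2779 in culture and to 3519 in the tissue. Tubb3, a neuronal tubulin and the only neural or Schwann cell marker with a row, was at 77 to 258 at 0 h, at 269 to 1673 in culture and at 178 in the tissue. The 3 blood cell markers in the table, of 6 listed, summed to 733 to 917 at 0 h and to 287 to 677 in culture. The 9 epithelial markers in the table, of 12 listed (Shh, Fgf4 and Esrp1 had no row), summed to 14458 in replicate 1 at 0 h, but to 1568 and 1929 in replicates 2 and 3. The fit without this library is therefore given beside each named gene whose printed call against 0 h turned with it, and beside the counts it moved most, for the gene lists as an alternative chosen after seeing the data. In its distance from its group over all transcripts, that library (root mean square log2 difference 0.440) was within the range of the other mDMC libraries, 0.280 to 0.445.

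**Figure D1:**
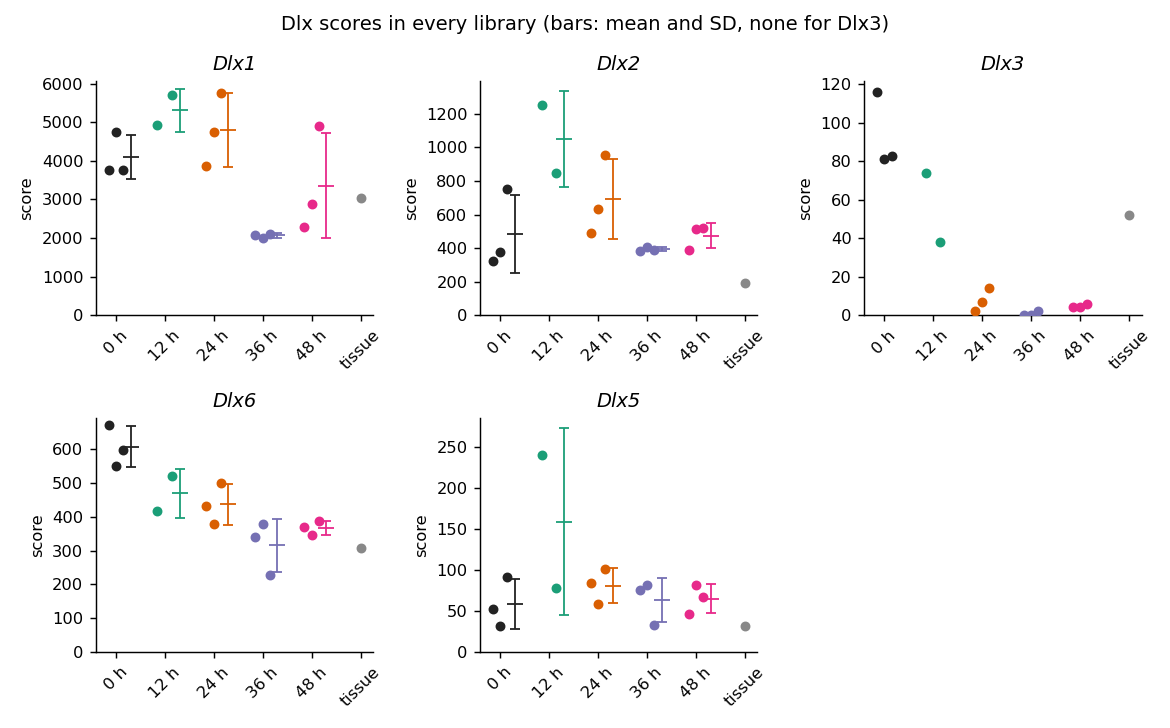
Score of each Dlx gene (y axis, from 0, a separate scale for each gene) in every library of mDMCs at 0, 12, 24, 36 and 48 h and in the tissue (x axis). Each point is a library, and the bars give mean and SD except for Dlx3, which is listed at 0 in some libraries: Dlx1 is low in all 3 libraries at 36 h, Dlx3 lies between 0 and 14 from 24 h on, and Dlx6 lies at 551 or above only at 0 h.

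Dlx1, with Dlx2 an early marker of jaw mesenchyme, was expressed at 3770, 4750 and 3770 in the libraries at 0 h, at 4923 and 5711 at 12 h, and at 3858, 4750 and 5769 at 24 h. It was at 2090, 1995 and 2114 at 36 h and at 2294, 2891 and 4892 at 48 h. The 36 h libraries lay close together and below every other library, the tissue included, whereas replicate 3 at 48 h was within the range at 24 h. In limma, fitted to log2(score + 1) over the 14 mDMC libraries, Dlx1 was lower at 36 h than at each earlier time, by a log2 change of -0.98 ± 0.22 (SE) from 0 h (limma adjusted p = 0.00167), -1.36 ± 0.25 from 12 h (adjusted p = 0.00129) and -1.19 ± 0.22 from 24 h (adjusted p = 0.00422). Each of these calls held in all 14 fits that left out 1 library. The change from 12 to 48 h, -0.73 ± 0.25 (limma adjusted p = 0.0322), was lost without either library at 12 h (adjusted p = 0.0777 and 0.151) and without replicate 1 or 2 at 48 h (adjusted p = 0.110 and 0.0849), and when only these time points were fitted (adjusted p = 0.110). From 0 to 48 h the difference was -0.35 ± 0.22 (limma adjusted p = 0.176). Without replicate 3 at 48 h it was -0.66 (limma adjusted p = 0.00385). From 24 to 48 h it was -0.57 ± 0.22 (limma adjusted p = 0.0845), and the fit with the replicate number as a block, or without replicate 3 at 48 h, called it (adjusted p = 0.0488 and 0.00434). By mean score, the levels of Dlx1 ran in the order 12 h, 24 h, 0 h, 48 h, tissue and 36 h, and no neighbouring time points in this order passed the test. In bulk samples, fewer cells of a type and less RNA per cell cannot be told apart.

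Dlx2, the partner of Dlx1, was expressed at 324, 376 and 751 at 0 h, at 1255 and 850 at 12 h, and at 487, 631 and 953 at 24 h. At 36 h its scores were 385, 405 and 391, and at 48 h they were 389, 512 and 521. Both libraries at 12 h were above all those at 0 h, and the libraries from 24 h on overlapped with 0 h. Dlx2 rose by 1.19 ± 0.33 on the log2 scale from 0 to 12 h, 2.29-fold (limma adjusted p = 0.00780). The rise was 0.91 without replicate 1 at 12 h and was then not called (limma adjusted p = 0.0892). From 12 h it fell again, with changes of -1.39 ± 0.33 to 36 h (limma adjusted p = 0.00610) and -1.13 ± 0.33 to 48 h (adjusted p = 0.0157). Without replicate 1 at 12 h the adjusted p was 0.0749 for 36 h and 0.152 for 48 h, and without replicate 1 at 48 h the latter was 0.0514. Against 0 h, Dlx2 differed by 0.56 ± 0.30 at 24 h, by -0.19 ± 0.30 at 36 h and by 0.06 ± 0.30 at 48 h (limma adjusted p = 0.113, 0.574 and 0.866). The 24 h difference was called without replicate 3 at 0 h, the highest of its group (0.93, limma adjusted p = 0.00603), and without replicate 1 at 24 h (0.78, adjusted p = 0.0456). From 24 to 36 h the difference was -0.75 ± 0.30 (limma adjusted p = 0.0914), with an adjusted p of 0.0459 under the replicate block. Without replicate 3 at 0 h it was 0.0320, and without replicate 1 at 24 h 0.0461. The order of the mean scores was 12 h, 24 h, 0 h, 48 h, 36 h and tissue, with 0 h (484) and 48 h (474) reversed on the log2 scale, and no neighbouring time points passed the test.

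Dlx3 showed the largest difference of the family. It was at 116, 81 and 83 at 0 h, at 74 and 38 at 12 h, at 2, 7 and 14 at 24 h, at 4, 4 and 6 at 48 h, and at 36 h it was listed at 0 in replicates 1 and 2 and at 2 in replicate 3. Every library from 24 h on was below every library at 0 and 12 h. Dlx3 was lower than at 0 h at each of these times, by a log2 change of -3.71 ± 0.61 at 24 h (limma adjusted p = 0.000148), -6.01 ± 0.61 at 36 h (adjusted p = 1.87e-06) and -4.06 ± 0.61 at 48 h (adjusted p = 6.01e-05). On log2(score + 10) in place of log2(score + 1), these changes were -2.59, -3.27 and -2.80, so that their size depended on the pseudocount while the calls did not. From 12 h the changes were -2.93 ± 0.69 to 24 h (limma adjusted p = 0.0215), -5.23 ± 0.69 to 36 h (adjusted p = 0.000128) and -3.27 ± 0.69 to 48 h (adjusted p = 0.00241). The fall to 24 h was not called without replicate 1 at 12 h (-2.45, limma adjusted p = 0.232) or without replicate 2 at 24 h (-3.01, adjusted p = 0.0641), nor when only these time points were fitted (adjusted p = 0.110). The difference between 0 and 12 h was -0.78 ± 0.69 (limma adjusted p = 0.351). From 24 to 36 h, where scores were at most 14, the difference was -2.30 ± 0.61 (limma adjusted p = 0.0215). It was not called with a pseudocount of 10 (-0.68, adjusted p = 0.117), nor without replicate 2 or 3 at 24 h (adjusted p = 0.0672 and 0.0951) or replicate 1 or 2 at 36 h (0.0804 and 0.0798), nor when only these time points were fitted (0.0704). Dlx3 reached the test only through its libraries at 0 and 12 h, since no library from 24 h on had a score of 1 ppm of the library total, about 21.4. The order of the mean scores was 0 h, 12 h, tissue, 24 h, 48 h and 36 h, and among neighbouring time points 12 and 24 h passed the test.

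The epithelial markers were followed beside Dlx3. Before culture their summed score ranged from 1568 to 14458 and after 12 h from 2433 to 2904. It then ranged from 1088 to 2245 (24 h), 91 to 687 (36 h) and 400 to 1339 (48 h), and none was at 0 in all libraries of a group. Of the 9 markers, 3, 6 and 5 passed the test as lower over 24, 36 and 48 h, and none as higher, where 31.8%, 34.0% and 34.0% of all transcripts were called as lower. Krt5, a keratin of basal epithelium, was at 4573, 422 and 467 at 0 h and at 34, 183 and 78 at 48 h (-3.60 ± 1.38, limma adjusted p = 0.0320). Without replicate 1 at 0 h its change was -2.48 ± 1.43 (limma adjusted p = 0.141), and 3, 5 and 3 markers were called as lower. The library with the most epithelial marker signal was also the highest for Dlx3. Without it, the log2 changes of Dlx3 from 0 h to 24, 36 and 48 h were -3.54, -5.85 and -3.89 (limma adjusted p = 0.000943, 1.8e-05 and 0.000426). At 12 h the markers summed to more than in replicates 2 and 3 at 0 h while Dlx3 was lower, and at 24 h replicate 2 held 2245 with Dlx3 at 7. The part of epithelial cells in the Dlx3 values was not tested.

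**Figure D2:**
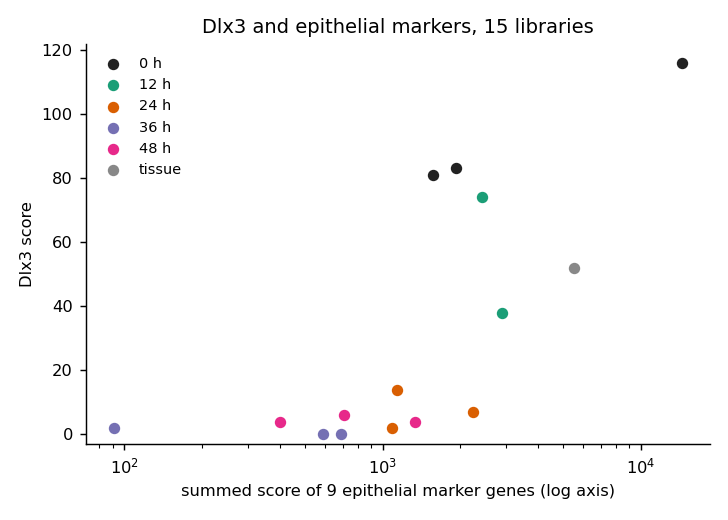
Dlx3 score (y axis) against the summed score of the 9 epithelial marker genes (x axis, log scale) in the 15 libraries, coloured by group. Replicate 1 at 0 h stands apart at a sum of 14458, and libraries with sums between 1088 and 2904 hold Dlx3 scores from 2 to 83.

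Dlx6, which with Dlx5 gives lower jaw mesenchyme its identity, was at 671, 551 and 599 at 0 h, at 418 and 520 at 12 h, and at 432, 378 and 500 at 24 h. It was at 340, 379 and 227 at 36 h and at 369, 345 and 386 at 48 h. Every cultured library was below every library at 0 h. Against 0 h, Dlx6 changed by -0.48 ± 0.18 at 24 h (limma adjusted p = 0.0284), -0.97 ± 0.18 at 36 h (adjusted p = 0.000282) and -0.72 ± 0.18 at 48 h (adjusted p = 0.00251). The falls at 36 and 48 h were called in all 14 fits with 1 library left out. The fall at 24 h was not called without replicate 1 or 3 at 0 h (limma adjusted p = 0.0920 and 0.0536), nor without replicate 1 or 2 at 24 h (adjusted p = 0.0598 and 0.112). At 12 h the difference was -0.38 ± 0.20 (limma adjusted p = 0.120), and it was called without replicate 3 at 36 h (adjusted p = 0.0436), a library that enters this comparison only through the shared estimate of the spread. Between 12 and 36 h Dlx6 fell by 0.60 ± 0.20 (limma adjusted p = 0.0306). This was lost without replicate 2 at 12 h (adjusted p = 0.194) or replicate 3 at 36 h (adjusted p = 0.0910), and when only these time points were fitted (adjusted p = 0.105). From 24 to 36 h the difference of -0.49 ± 0.18 was not called (limma adjusted p = 0.0665). It was called without replicate 2 at 36 h (adjusted p = 0.0484). The mean scores followed the order 0 h, 12 h, 24 h, 48 h, 36 h and tissue, and neighbouring time points did not pass the test.

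Dlx5 was the least expressed member by score at 0 h, with 52, 31 and 91. It was at 240 and 78 at 12 h, at 84, 58 and 101 at 24 h, at 75, 82 and 33 at 36 h and at 46, 82 and 67 at 48 h. Apart from replicate 1 at 12 h, all cultured libraries were between 33 and 101, a range that overlapped with 0 h. Dlx5 rose by 1.36 ± 0.55 from 0 to 12 h (limma adjusted p = 0.0477). The call rested on replicate 1 at 12 h, without which the difference was 0.55 (limma adjusted p = 0.480), and it was lost in 11 of the 14 fits that left out 1 library and when only these time points were fitted (adjusted p = 0.120). Among these, it was 0.98 without replicate 2 at 0 h (limma adjusted p = 0.161) and 1.35 without replicate 1 at 0 h (adjusted p = 0.0842), and in the other fits that lost it the adjusted p was at most 0.0593. At 24, 36 and 48 h Dlx5 differed from 0 h by 0.57, 0.15 and 0.26, each ± 0.49 (limma adjusted p = 0.316, 0.792 and 0.653). The order of its mean scores was 12 h, 24 h, 48 h, 36 h, 0 h and tissue, without a neighbouring difference that passed the test. Between 12 and 36 h and between 12 and 48 h the differences were -1.20 and -1.10 (limma adjusted p = 0.0986 and 0.121). They were called without replicate 2 at 12 h (-2.01 and -1.91, adjusted p = 0.0262 and 0.0285).

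**Figure D3:**
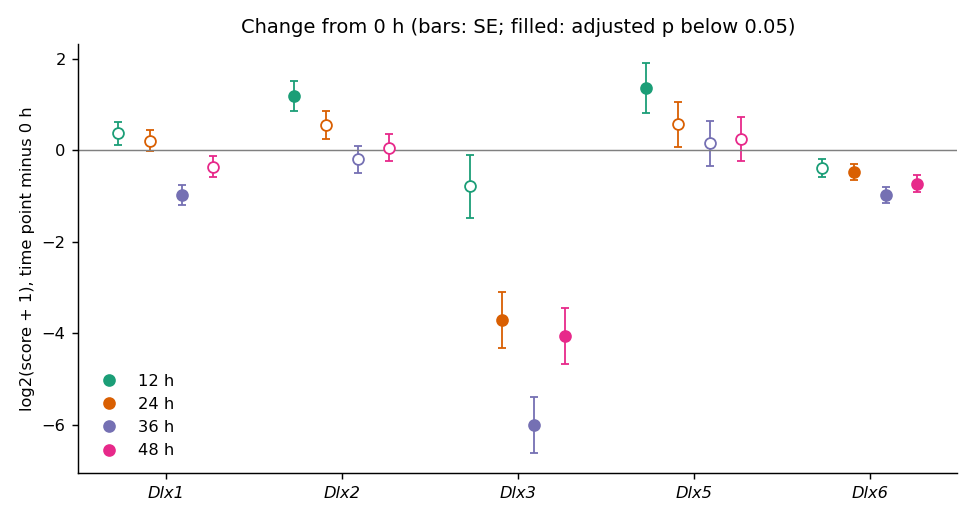
Change in log2(score + 1) from 0 h (y axis) of each Dlx gene (x axis) at 12, 24, 36 and 48 h, with the SE of the limma fit as bars. Filled symbols mark an adjusted p below 0.05: Dlx2 and Dlx5 are filled above 0 at 12 h, Dlx3 and Dlx6 below 0 from 24 h on, and Dlx1 below 0 at 36 h.

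The comparisons with 0 h share their control libraries, and most transcripts passed the test in them. Dlx3 is counted as lower in each comparison of 0 or 12 h with 24, 36 or 48 h. It entered the test only through its libraries at 0 and 12 h, and the filter in all 14 libraries leaves it out of these counts. At 12 h, 2 of the 5 members were called, both higher (Dlx2 and Dlx5), against 58.2% of all 12079 transcripts tested (29.9% higher and 28.3% lower). At 24 h 2 members were called, both lower (Dlx3 and Dlx6), against 66.9% of all transcripts (35.0% higher and 31.8% lower). At 36 h 3 were called (Dlx1, Dlx3 and Dlx6), all lower, against 70.0% (36.0% higher and 34.0% lower). At 48 h 2 were called, again Dlx3 and Dlx6 as lower, against 71.2% (37.1% higher and 34.0% lower). Between 12 and 24 h, 1 member was called (Dlx3) while 8.25% of all transcripts were. Between 12 and 36 h, 4 members were called as lower (Dlx1, Dlx2, Dlx3 and Dlx6) against 38.4%, and between 12 and 48 h 3 (Dlx1, Dlx2 and Dlx3) against 42.2%. Between 24 and 36 h, Dlx1 and Dlx3 were called as lower against 19.7% of all transcripts, and the replicate block called 3 members, with Dlx2 added. Dlx3 was under 1 ppm of the library total in all libraries at 24 and 36 h, and with the filter in all 14 libraries, which leaves it out, 1 member was called. Between 24 and 48 h, limma called 0 members against 23.8% of all transcripts, with 1 member, Dlx1, at an unadjusted p under 0.05, and 1 under the replicate block. Between 36 and 48 h limma again called 0 members, against 0.0248% of all transcripts, with 2 members, Dlx1 and Dlx3, at an unadjusted p under 0.05 and higher at 48 h. Against 0 h, the 5 members had median changes of 0.38, 0.22, -0.97 and -0.35 over 12, 24, 36 and 48 h, where the median of all transcripts tested was between 0.02 and 0.03.

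Whether linked genes changed unequally was asked within each library, by subtracting log2(score + 1) of the partner. The permutation tests of these differences pooled the cultured time points and counted each library as independent. For Dlx1 minus Dlx2, the libraries at 0 h gave 3.54, 3.66 and 2.33, and the 11 cultured libraries lay between 1.97 and 3.23. The means were 3.17 ± 0.74 (SD, n = 3) at 0 h and 2.61 ± 0.35 (SD, n = 11) in culture. The difference of -0.57 did not pass an exact two-sided permutation test (p = 0.0879, 364 divisions, smallest possible p = 0.00549). Without replicate 3 at 0 h, in which Dlx2 was high, it was -0.99 (exact permutation p = 0.0256). Without replicate 1 or 2 at 0 h it was -0.39 and -0.33. For Dlx5 minus Dlx6, the libraries at 0 h gave -3.66, -4.11 and -2.71, and the cultured libraries lay between -2.98 and -0.80, so that replicate 3 at 0 h overlapped with them. The means were -3.49 ± 0.72 (SD, n = 3) at 0 h and -2.32 ± 0.58 (SD, n = 11) in culture. The difference of 1.17 passed the exact two-sided permutation test (p = 0.0220, adjusted over the 2 pairs 0.0440). It was lost without replicate 1 or replicate 2 at 0 h (1.09 and 0.87, exact permutation p = 0.103 in both) and in the 48 h libraries alone (0.98, exact permutation p = 0.200, where 3 against 3 cannot go below 0.10). The difference was positive in all 14 settings with a library left out, and it concerns the Dlx5 row, which names a transcript without the homeodomain.

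**Figure D4:**
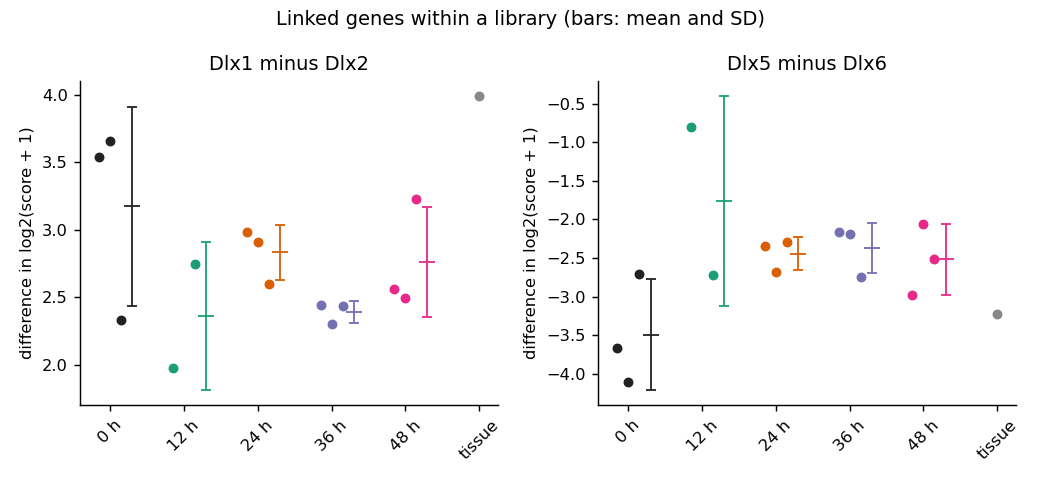
Difference in log2(score + 1) between linked genes within a library (y axis), Dlx1 minus Dlx2 and Dlx5 minus Dlx6, by group (x axis). Points are libraries and bars give mean and SD: for Dlx5 minus Dlx6, 2 of the 3 libraries at 0 h lie below all 11 cultured libraries, and the tissue (-3.22) lies within the range at 0 h.

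Among the 11 cultured libraries, the scores of Dlx1 and Dlx2 were correlated. Pearson's r of log2(score + 1) was 0.836 (permutation p = 0.00117, adjusted over 2 relations 0.00234) and Spearman's rho 0.891 (permutation p = 0.00041, adjusted 0.00082). Without replicates 1 and 2 at 36 h, the libraries farthest from the median of Dlx1, r was 0.798 (permutation p = 0.0122). Within time points, that is for the deviations from the time point means, r was 0.536. The permutations shuffled libraries across time points, so their p-values do not separate a shared time course from a relation within time points. For Dlx5 and Dlx6, r was 0.588 (permutation p = 0.0717, adjusted 0.0717) and rho 0.624 (permutation p = 0.0444, adjusted 0.0444). Without replicate 1 at 12 h and replicate 3 at 36 h r was 0.445 (permutation p = 0.230), and within time points it was 0.367. With replicate 1 at 12 h alone left out, r was 0.771 (permutation p = 0.0128), and with replicate 3 at 36 h alone left out it was 0.30 (permutation p = 0.4065). The relation thus rested on replicate 3 at 36 h. Such values were not particular to linked genes: over the same libraries r was 0.962 for Dlx2 with Dlx6os1 and 0.909 with Dlx3, 0.863 for Dlx1 with Dlx6os1, and 0.747 for Dlx5 with Dlx2. Among these libraries Dlx3 reached 1 ppm of the library total only at 12 h.

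Antisense transcripts of both loci had rows of their own. Dlx1as (chr2:71516454-71527919, minus strand) starts 193 bases from Dlx1 and is read in the opposite direction, and Dlx6os1, also called Evf2 (chr6:6820189-6861591, minus strand), lies 1742 bases from Dlx6. Other annotated isoforms of both overlap the coding genes, the Dlx1as transcript overlaps the span of Metap1d, and the use of strand in the counting was not stated. Reads from the stretches that such isoforms share with a coding gene therefore cannot be told apart.

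Dlx1as was at 662, 1251 and 829 at 0 h, at 1058 and 1254 at 12 h, at 761, 1264 and 1762 at 24 h, at 284, 246 and 287 at 36 h and at 306, 515 and 1125 at 48 h. It was high and low in the same libraries as Dlx1, including replicate 3 at 24 and at 48 h. Of all transcripts of other genes tested, Dlx1as had the pattern most like that of Dlx1, with r = 0.988 over the 14 mDMC libraries and 0.991 over the 11 cultured libraries. Its log2 change to 36 h was -1.70 ± 0.40 from 0 h (limma adjusted p = 0.00223), -2.08 ± 0.45 from 12 h (adjusted p = 0.00357) and -2.13 ± 0.40 from 24 h (adjusted p = 0.00439). Metap1d, a mitochondrial aminopeptidase gene, was at 64 to 171 in mDMCs, where Dlx1as was at 246 to 1762.

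Dlx6os1 was at 614, 799 and 460 at 0 h, at 311 and 281 at 12 h, at 98, 104 and 278 at 24 h, at 47, 63 and 37 at 36 h and at 41, 72 and 79 at 48 h. All cultured libraries were below those at 0 h, and those at 36 and 48 h were below all at 24 h. Its log2 changes from 0 h to 24, 36 and 48 h were -2.10, -3.64 and -3.28, each ± 0.38 (limma adjusted p = 0.000312, 2.28e-06 and 5.5e-06). At 12 h the difference was -1.04 ± 0.43 (limma adjusted p = 0.0513). Its partner Dlx6 differed by at most -0.97 at these times. Over the 14 mDMC libraries the r of Dlx6os1 with Dlx6 was 0.882, the 50th highest for Dlx6. It was 0.142 with Dlx5 on the other side of the intergenic stretch. Over the 11 cultured libraries alone, r was 0.790 with Dlx6 and 0.738 with Dlx5.

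**Figure D5:**
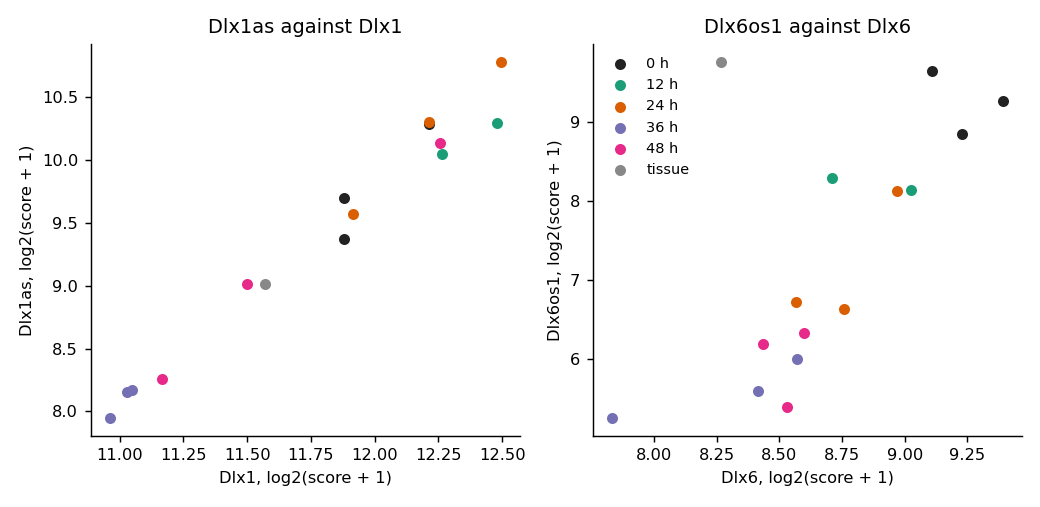
Log2(score + 1) of Dlx1as against Dlx1 and of Dlx6os1 against Dlx6 (x axis coding gene, y axis antisense transcript) in the 15 libraries, coloured by group. The Dlx1 and Dlx1as points lie along a line that includes the tissue, whereas the tissue combines the highest Dlx6os1 score (869) with a low Dlx6 score (307).

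In the tissue, Dlx1 was at 3036, Dlx2 at 190, Dlx3 at 52, Dlx5 at 32 and Dlx6 at 307. Dlx1, Dlx2, Dlx3 and Dlx6 were thus below the range of the freshly isolated cells, and Dlx5 was within it. Dlx1as, at 516, was below this range too, and Dlx6os1, at 869, was above it. Of all transcripts in the table, 32.0% were below the range at 0 h and 29.7% above it. The tissue had a log2 difference from the 0 h mean of -1.24 for Dlx2, -0.98 for Dlx6, -0.81 for Dlx3, -0.71 for Dlx5 and -0.42 for Dlx1. There is 1 tissue library, so these differences have no replicate check.

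Genes with a pattern like that of a member were named by the highest r of log2(score + 1) over the 14 mDMC libraries, which share time points and a common distribution, and no p is given. After Dlx1as, the nearest to Dlx1 were Stk39 (r = 0.954) and Fam102b (0.942). For Dlx2 they were Aff2 (0.958), Naa50 (0.955) and Stk24 (0.945), and for Dlx3 they were Inpp5f (0.970), Sdr39u1 (0.955) and Plekha5 (0.950). Dlx3 itself was under 1 ppm of the library total in every library from 24 h on. Nearest to Dlx6 were Slitrk4 (0.982), Zfp428 (0.942) and Hist1h4n (0.937), the last a histone gene with near-identical copies that may share reads. Dlx5 had lower values, led by Ywhab (0.906), Palld (0.902) and St3gal1 (0.900). Within the cultured libraries these r values were between 0.869 (St3gal1 with Dlx5) and 0.973 (Slitrk4 with Dlx6). The linked partner was not among them: r over the 14 libraries was 0.647 for Dlx1 and Dlx2 and 0.161 for Dlx5 and Dlx6.

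Signals that act upstream of Dlx genes in the arches were followed as a list of 22 genes, of which 20 were tested. These include the endothelin pathway, which turns on Dlx5 and Dlx6 in the lower jaw, and BMP and FGF signals of the epithelium. At 48 h against 0 h, 4 were higher, 10 were lower and 6 were not called, with a median change of -0.29 against 0.03 for all transcripts. The 14 called of 20 were near the 71.2% of all transcripts called. Edn1, the endothelin-1 ligand, was at 12, 22 and 25 at 0 h and at 280, 571 and 604 at 48 h. It rose by 4.54 ± 0.33 (limma adjusted p = 8.5e-08), and its receptor Ednra fell by 2.50 ± 0.38 (adjusted p = 6.53e-05), from 739, 728 and 932 to 73, 183 and 204. Mef2c, an effector of this receptor, fell by 1.70 ± 0.15 (limma adjusted p = 6.02e-07). Ece1, which cleaves the ligand into its active form, Plcb3 and Gna11 of the receptor's signalling chain did not pass the test against 0 h at any time. Gnaq, a G protein of the same chain, was higher at 12 h (0.34 ± 0.12, limma adjusted p = 0.0305, or 0.0855 without replicate 1 at 0 h), and lower at 36 h (-0.29 ± 0.11, adjusted p = 0.0295) and 48 h (-0.35 ± 0.11, adjusted p = 0.0116). Of the BMP genes, Bmp7 was at 350, 200 and 170 at 0 h and at 5, 1 and 0 at 48 h (-6.65 ± 0.69, limma adjusted p = 1.98e-06). Bmp4 rose by 1.61 ± 0.12 (limma adjusted p = 1.38e-07) and the receptor Bmpr1b by 2.12 ± 0.21 (adjusted p = 1.57e-06). Over the earlier times the list held 7 higher and 6 lower genes (12 h), 5 and 8 (24 h) and 4 and 9 (36 h), or 13 of 20 called each time (10 of 20 at 12 h without replicate 1 at 0 h) where 58.2%, 66.9% and 70.0% of all transcripts were.

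Genes of the jaw that depend on Dlx5 and Dlx6 in the embryo were a list of 12, of which 6 were in the table. All 6 were lower at 48 h than at 0 h, with no overlap between the libraries, as was the case for 34.6% of all transcripts. Over 12, 24, 36 and 48 h their medians were -1.73, -2.61, -2.62 and -2.65, and 5, 6, 5 and 6 of them were called as lower, where 28.3%, 31.8%, 34.0% and 34.0% of all transcripts were. Rgs5, a regulator of G protein signalling, was at 1908, 2515 and 2308 at 0 h and at 134, 131 and 170 at 48 h (-3.94 ± 0.22, limma adjusted p = 9.16e-09). Rgs5 is also a marker of pericytes, and all 6 endothelial markers were called as lower at 48 h too. Their part in this value was not tested. Lower as well were Cited1, a transcriptional coactivator (-3.52 ± 0.41), and the homeobox genes Alx4 (-2.72 ± 0.37) and Gsc (-2.58 ± 0.27), with a limma adjusted p of 5.33e-06, 2.47e-05 and 2.56e-06. Pou3f3, an upper jaw gene that Dlx5 and Dlx6 repress, was not called at 12 h (-0.01, limma adjusted p = 0.960) and fell by 1.88 ± 0.16 at 48 h (adjusted p = 2.83e-07). Bmper was the member with the smallest change at 48 h (-0.41 ± 0.16, limma adjusted p = 0.0359), and its call was lost without replicate 1 at 0 h (adjusted p = 0.0678).

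Binding partners of Dlx proteins were all in the table. Of these 6, 4 were lower and 2 not called at 48 h, with a median of -0.44, so that 4 of 6 were called where 71.2% of all transcripts were. Maged1, which binds Dlx5 and Msx2, was at 25068, 28882 and 20924 at 0 h and at 4713, 6948 and 6427 at 48 h, and fell by 2.06 ± 0.14 (limma adjusted p = 6.01e-08). The ubiquitin ligase Pja1 (-0.59 ± 0.09) and Msx1 (-0.58 ± 0.08), a homeobox partner needed for tooth formation, were lower too (limma adjusted p = 4.81e-05 and 3.31e-05). So was Smad4, a BMP signal transducer that also stands in the list of upstream signals (-0.30 ± 0.07, limma adjusted p = 0.00276). Msx2 differed by 0.56 ± 0.32 and Ndn by 0.02 ± 0.09 (limma adjusted p = 0.134 and 0.841).

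Skeletal and dental differentiation genes with known Dlx input numbered 12, of which 10 were tested, with 3 higher, 5 lower and 2 not called at 48 h and a median of -0.85, against 37.1% of all transcripts higher and 34.0% lower. Alpl, the alkaline phosphatase of mineralizing cells, was at 2288, 1988 and 2008 at 0 h and at 65, 27 and 47 at 48 h (-5.55 ± 0.31, limma adjusted p = 7.28e-09). Ibsp, a bone matrix protein, changed by -2.52 ± 0.52 and Runx2, a master regulator of osteoblasts, by -2.09 ± 0.32 (limma adjusted p = 0.000732 and 7.5e-05). Spp1, which codes for osteopontin, rose by 2.26 ± 0.32 (limma adjusted p = 3.32e-05). The earlier times had 4 higher and 1 lower (12 h), 4 and 4 (24 h) and 3 and 5 (36 h), so that 5, 8 and 8 of 10 were called, where 58.2%, 66.9% and 70.0% of all transcripts were. Without replicate 1 at 0 h these were 6, 7 and 7, and 7 of 10 at 48 h.

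Transcripts of 24 genes within 500 kb of a member were tested. At 48 h against 0 h, 7 were higher, 9 were lower and 8 were not called, so that 16 of 24 passed the test where 71.2% of all transcripts did. Sem1 and Sdhaf3, the neighbours of Dlx5 and Dlx6 on chromosome 6, were not called at any time against 0 h, with changes between -0.27 and 0.21. The largest changes at 48 h were those of Ngfr (-6.50 ± 0.22), Samd14 (-2.91 ± 0.16) and Itga3 (2.89 ± 0.33) on chromosome 11 and of Cybrd1 (-3.06 ± 0.20) on chromosome 2. Ngfr, a neurotrophin receptor that marks neural crest cells, was at 1839, 2032 and 1828 at 0 h and at 18, 21 and 21 at 48 h (limma adjusted p = 1.09e-10).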

How the data were processed

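RNA-seq libraries of freshly isolated mDMCs (0 h), mDMCs cultured for 12, 24, 36 and 48 h and dental mesenchymal tissue, 15 in all, were grouped by the sample labels. Adaptor trimming, alignment by bowtie to mm10 transcripts of Ensembl and estimation by RSEM (version 1.1.21 in the submitters' processing notes) were done by the authors. The published methods name another version of RSEM. The authors deposited 1 table of expression scores in whole numbers, labelled as cpm, although library totals far above that unit's limit contradict the label. Its normalization is not given in the sources used here. As libraries share one distribution, a change in total RNA cannot be seen. Of 12089 transcripts, 11973 matched genes of GENCODE M21 (GRCm38). The depth is unknown.

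Scores were analysed as log2(score + 1). The 14 mDMC libraries entered a limma fit (version 3.58.1 under R 4.3.3) that gave each time point a mean and let the prior variance follow the intensity (eBayes). This step was tested on simulated data. Transcripts were kept if 2 or more libraries reached 1 ppm of their total, which left 12079 for the 10 contrasts with Benjamini-Hochberg adjustment, and a call needed an adjusted p below 0.05. Differences between linked genes were tested with exact permutation tests and correlations with 100000 permutations (Python 3.11.15, scipy 1.17.1). Figures were drawn with matplotlib 3.10.9.

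The settings varied were the pseudocount (10), the filter (none, or 1 ppm in all 14 libraries), the libraries fitted (only the compared time points), the intensity trend (none), a block for the replicate number, and the rule for a call (more than 2-fold at an unadjusted p below 0.05), with each library also left out in turn. The block was read as a pairing only between 24 and 36 h and between 24 and 48 h. There, the deviations of same-numbered libraries from their group means correlated above 0.1 in each of the 3 pairs (0.165, 0.142 and 0.127, and 0.304, 0.201 and 0.318). Over all time points, 11 of 26 such pairs did.

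Members and gene lists were chosen with earlier results of these data known, and lists come from general knowledge. All members and antisense transcripts are named, with up to 4 called genes of each list by the size of the change at 48 h, genes whose role the text needs, and the 3 genes most alike to each member. No table column was left out.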

Additional observations from a re-analysis of the deposited data

How the results depend on the processing

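The calls of Dlx1, Dlx3 and Dlx6 as lower at 36 h than at 0 h held in every fit with a library left out, as did those of Dlx3 and Dlx6 at 48 h. Dlx3 entered these fits only through its libraries at 0 and 12 h. The filter was set once on all 14 libraries, so these fits do not test its part in the Dlx3 calls. Other counts of called members varied. Between 0 and 12 h the count of 2 became 1, with Dlx5 lost, when only these time points were fitted, without the intensity trend and under the replicate block, and ranged from 0 to 3 with a library left out. Between 0 and 24 h (2) it was 1 with the filter in all libraries, which removes Dlx3, and 1 when a call needed more than 2-fold at an unadjusted p below 0.05, and 1 to 2 with a library left out. By the latter rule the count was 1 in place of 3 between 0 and 36 h and 1 in place of 2 between 0 and 48 h, since Dlx1 and Dlx6 changed by less than 2-fold, and 1 in place of 0 between 36 and 48 h. The filter in all libraries also gave 1 between 0 and 48 h. Between 12 and 24 h (1) the count was 0 with that filter and with only these time points, and 0 to 1 with a library left out. Between 12 and 48 h (3) leaving out a library gave 1 to 3, and fitting only these time points gave 2, with Dlx1 lost. The latter gave 3 in place of 4 between 12 and 36 h, with Dlx6 lost. Between 24 and 36 h (2) the count was 1 with a pseudocount of 10, with the filter in all libraries and with only these time points, and 1 to 3 with a library left out. Between 24 and 48 h (0) it was 1 under the replicate block and 0 to 1 with a library left out. Between 12 and 36 h the block lost the call of Dlx6 (adjusted p = 0.0540 in limma). The block changed no other call of a member than those named here and beside the results.

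Changes that turned their sign with a library left out were all uncalled. Their ranges were -0.43 to 0.17 for Dlx2 and -0.22 to 0.56 for Dlx5 at 36 h against 0 h, -0.18 to 0.43 and -0.12 to 0.64 at 48 h against 0 h, -1.59 to 0.018 for Dlx5 and -0.26 to 0.054 for Dlx6 between 12 and 24 h, -0.97 to 0.19 for Dlx3 between 24 and 48 h, and -0.31 to 0.34 for Dlx5 between 36 and 48 h. With a library left out, Dlx1 minus Dlx2 in culture against 0 h ranged from -0.99 to -0.33 and Dlx5 minus Dlx6 from 0.87 to 1.57, the latter 0.98 in the 48 h libraries alone. The r of Dlx5 and Dlx6 ranged from 0.30 to 0.77. Within time points r was 0.536 for Dlx1 and Dlx2 and 0.367 for Dlx5 and Dlx6. The cause of these differences was not tested.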
